A study of Mus musculus with 7 samples.

Results

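The mammary epithelium grows within a pad of white fat, and a piece of gland taken for RNA carries the fat cells with it. This account follows 10 genes that mark mature fat cells, *Adipoq*, *Lep*, *Retn*, *Cfd*, *Plin1*, *Plin4*, *Fabp4*, *Pparg*, *Lipe* and *Car3*, out of 37310 annotated genes. They were chosen by name as genes of the adipocyte, with earlier results of these data known. Each was matched to its row by the gene symbol of GENCODE vM1. RNA-seq was performed on mammary glands of C57BL/6 mice at lactation day 1, with 3 libraries labelled WT and 4 labelled *Tardbp* KO. By the methods of the study, the *Tardbp* KO animals carried *Tardbp* fl/fl and WAP-Cre, and the WT animals carried *Tardbp* wt/wt and WAP-Cre, so Cre was present in both groups. The Cre is driven by the whey acidic protein promoter, which is active in luminal epithelial cells from the middle of pregnancy into lactation, and it removes exons 2 to 3 of *Tardbp*, the gene of the RNA-binding protein TDP-43. Fat cells are not a target of this promoter, so the comparison asks whether RNA of the fat pad differed between glands whose epithelium did or did not carry the deletion. The ages of the animals are not given in the sources used here.

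White adipocytes store triglyceride in a single large droplet coated with perilipins, release it as fatty acid between meals, and secrete hormones such as adiponectin and leptin. Their identity rests on the nuclear receptor PPARγ together with transcription factors of the C/EBP family. During pregnancy and lactation the fat cells of the gland lose lipid and shrink as the alveoli fill the pad, and they fill again after weaning.

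Libraries held 36007737 to 42811337 counts, and each of the 10 genes had between 316 and 110058 counts in a library. Milk protein genes took up 26.3% to 34.0% of the counts in the libraries labelled WT and 12.7% to 21.8% in those labelled *Tardbp* KO. A level is therefore given as CPM, the counts of a gene relative to all counts of its library, after TMM scaling, which sets the libraries to one another by the bulk of their genes rather than by their totals. *Tardbp* itself stood at 223, 178 and 159 CPM in the libraries labelled WT, in the order of their replicate numbers, and at 214, 176, 154 and 208 CPM in those labelled *Tardbp* KO, with a log2 fold change of 0.01. A count over the whole gene in whole gland does not test a deletion of a few exons in one cell type, so WT and KO below are the names that the labels give. The legends of the study count each library as a mouse, and the SD over the libraries of a group holds the difference between animals, the preparation and counting error together.

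No difference between the groups passed the test for any of the 10 adipocyte genes. By the quasi-likelihood test of edgeR, adjusted after Benjamini and Hochberg, their adjusted p lay between 0.306 for *Lipe* and 0.965 for *Lep*, and 0 of 10 were called at an adjusted p under 0.01 with a log2 fold change beyond 1 in size, where 0% of the 17175 genes tested were called. At an unadjusted p under 0.05 the test gave 0 of the 10 adipocyte genes and 3674 of all genes (21.4%). The more permissive edgeR exact test called 419 genes (2.44%), DESeq2 572 (3.33%) and edgeR's likelihood ratio test 464 (2.70%), and none of these calls was an adipocyte gene. The ranges of the WT and *Tardbp* KO libraries overlapped for all 10 genes. Among all genes, 18.7% had groups that did not overlap (9.07% with every KO library above every WT library, 9.62% with every one below). With 10 genes, a count of 0 cannot be set apart from any of the shares given here. A 2-sided exact permutation test over all 35 arrangements of the 7 libraries, whose smallest possible p is 0.0571 so that no gene could pass 0.05, gave p between 0.171 and 1.

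The fitted log2 fold changes, KO minus WT, were positive for 7 of the 10 genes and negative for 3, beside 54.3% positive among all genes. Their median was 0.33, beside 0.05 for all genes. This small excess rested on *Tardbp* KO replicate 2: without that library the median of the 10 genes was 0.06, and that of all genes 0.03. With counts scaled by library size only, the median of the 10 genes was 0.70 and that of all genes 0.42, so the distance between the medians was 0.29, beside 0.28 with TMM scaling. Lane 4 of the sequencer held 1 WT and 2 *Tardbp* KO libraries. Within it the difference of mean log2(CPM + 1), a plain difference and not a fitted value, had a median of 0.07. Over all genes that median was -0.0009. The other lanes held 1 library each and give no value of their own.

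**Figure D1:**
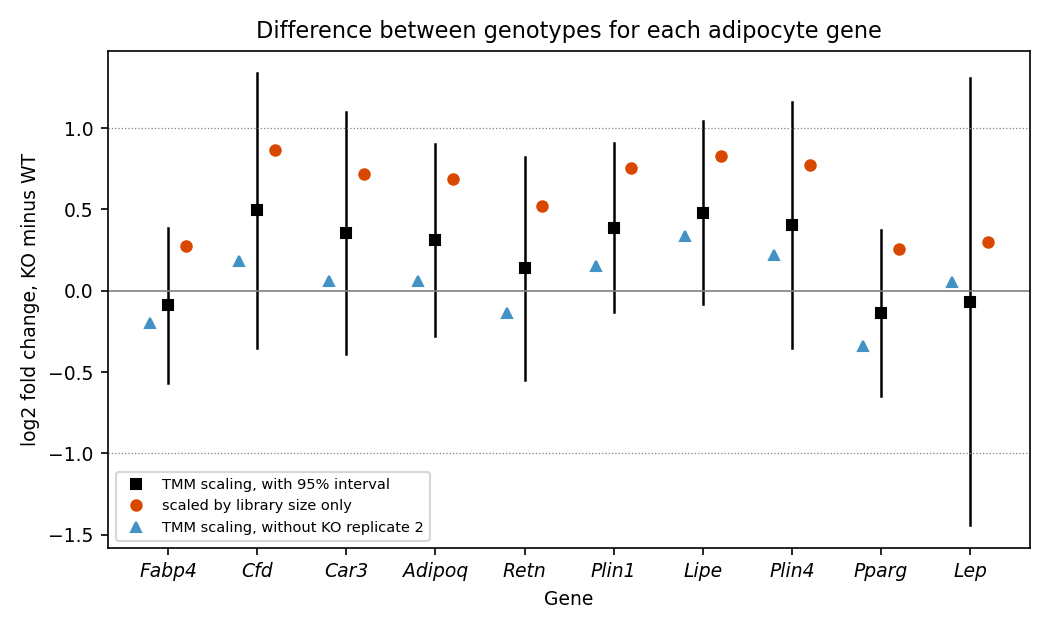
Log2 fold change (KO minus WT, vertical axis) of each adipocyte gene (horizontal axis, ordered by WT level per length). Squares with bars are the TMM-scaled estimates with their 95% intervals over 3 WT and 4 KO libraries, circles are estimates scaled by library size only, triangles are TMM-scaled estimates without KO replicate 2, and dotted lines mark a 2-fold difference either way. Every bar crosses 0, and *Lep* has the widest.

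The intervals, which rest on TMM scaling, say how large a difference could have gone unseen. The 95% interval excluded a 2-fold lower level in *Tardbp* KO for 9 of the 10 genes, all but *Lep*. A 2-fold higher level was excluded for 5 genes, and both were excluded for the same 5, *Adipoq*, *Retn*, *Plin1*, *Fabp4* and *Pparg*. For the other 5 genes a 2-fold higher level was within the interval. Scaled by library size only, *Adipoq*, *Retn* and *Plin1* had estimates of 0.69, 0.52 and 0.75. Intervals were not computed for that scaling, so the exclusions are stated for TMM scaling alone. In whole tissue, fewer fat cells and less RNA of these genes per fat cell cannot be told apart. How much of each of these RNAs came from cells other than fat cells was not tested.

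Levels can be compared between genes only per length, as RPKM, here TMM-scaled CPM divided by the summed exon length in kilobases. *Fabp4* was the most abundant at 2282 ± 281 RPKM (SD, n = 3 WT libraries), followed by *Cfd* at 1137 ± 287 RPKM and *Car3* at 846 ± 215 RPKM. *Adipoq* stood at 177 ± 28.1 RPKM, *Retn* at 74.1 ± 13.8 RPKM and *Plin1* at 68.4 ± 8.28 RPKM. *Lipe* at 35.1 ± 10.9 RPKM, *Plin4* at 28.3 ± 3.08 RPKM, *Pparg* at 15.3 ± 2.79 RPKM and *Lep* at 7.67 ± 1.96 RPKM closed the order. Neighbours in this order overlapped in their WT libraries in 3 places, *Cfd* with *Car3*, *Retn* with *Plin1* and *Lipe* with *Plin4*, and the remaining neighbours did not overlap. Every defining fat cell gene was thus present in every library.

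**Figure D2:**
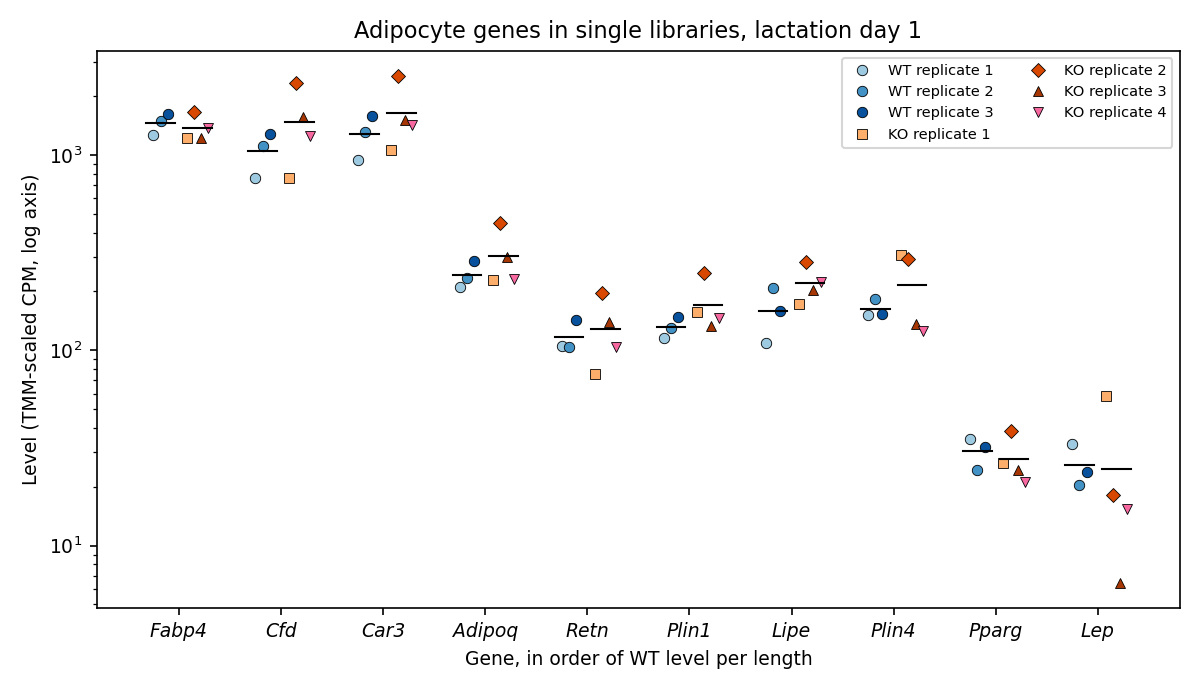
Level of each adipocyte gene in each library (TMM-scaled CPM, log axis), with genes in the order of their WT level per length, 1 symbol per library, and short lines for the group means of 3 WT and 4 KO libraries. WT and KO symbols overlap for all 10 genes, and KO replicate 2 is the highest library for 8 of them.

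Among the secreted products, *Adipoq* encodes adiponectin, the hormone most specific to fat cells. The gene lies on chromosome 16, 23146609 to 23158101, plus strand (ENSMUSG00000022878, NCBIM37, as all positions here). *Adipoq* was at 211, 235 and 286 CPM in WT replicates 1, 2 and 3 and at 228, 449.9, 301 and 233 CPM in *Tardbp* KO replicates 1 to 4. KO replicate 2 stood well above the rest, KO replicate 3 slightly above the highest WT library, and KO replicates 1 and 4 lay within the WT range. The log2 fold change was 0.31 ± 0.26 (SE), with a 95% interval from -0.28 to 0.90 and an adjusted p of 0.537 by the edgeR quasi-likelihood test.

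*Cfd* encodes adipsin, the serine protease complement factor D, which fat cells release in quantity. It lies on chromosome 10, 79353598 to 79355401, plus strand (ENSMUSG00000061780). Its level was 762, 1104 and 1283 CPM over the WT replicates and 759, 2340.3, 1555 and 1256 CPM in the KO replicates in order. KO replicate 1 was just under the lowest WT library, while KO replicates 2 and 3 lay above all WT libraries. The estimate, a log2 fold change of 0.49 ± 0.37 (95% interval -0.35 to 1.34), was the largest of the 10, and its adjusted p was 0.490 by the edgeR quasi-likelihood test.

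Resistin, the product of *Retn*, is a small hormone that mouse white fat secretes. *Retn* lies on chromosome 8, 3655770 to 3660110, plus strand (ENSMUSG00000012705). Its level was 105, 104 and 142 CPM in the WT libraries and 75.2, 197, 139 and 104 CPM in the KO libraries. The lowest and the highest library were both KO, replicate 1 and replicate 2, and the log2 fold change was 0.14 ± 0.30 (95% interval -0.55 to 0.83; adjusted p = 0.833 by the edgeR quasi-likelihood test). Without KO replicate 2 the estimate was negative, at -0.14.

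*Lep* encodes leptin, which reports the fat store to the brain. It lies on chromosome 6, 29010220 to 29023877, plus strand (ENSMUSG00000059201). *Lep* was at 33.0, 20.3 and 23.8 CPM in the WT libraries and at 58.2, 18.1, 6.47 and 15.5 CPM in the KO libraries, each in replicate order. It was the most variable of the 10 genes, with a 8.99-fold range across the libraries. KO replicate 1 was above every WT library and KO replicates 2, 3 and 4 below every WT library. The means were 25.7 ± 6.56 CPM (SD, n = 3) and 24.5 ± 23.0 CPM (SD, n = 4), and the log2 fold change was -0.07 ± 0.61 (95% interval -1.44 to 1.31; adjusted p = 0.965 by the edgeR quasi-likelihood test). The sign depended on single libraries: it was -0.95 without KO replicate 1 and positive without WT replicate 1 (0.15) or without KO replicate 2 (0.05), 3 (0.25) or 4 (0.08). With scaling by library size only it was 0.30.

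The droplet coat comes next. Perilipin 1, from *Plin1*, covers the large droplet of the fat cell and gates access of lipases to it. *Plin1* lies on chromosome 7, 86866050 to 86877662, minus strand (ENSMUSG00000030546). Its level was 116, 130.2 and 147 CPM in WT and 157, 248, 133 and 146 CPM in KO. KO replicates 1 and 2 were above the WT libraries, and replicates 3 and 4 were among them. The log2 fold change of 0.39 ± 0.23 (95% interval -0.13 to 0.91) had an adjusted p of 0.372 by the edgeR quasi-likelihood test.

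*Plin4* encodes perilipin 4, a long repetitive protein found on small, newly forming droplets of fat cells. It lies on chromosome 17, 56240014 to 56249225, minus strand (ENSMUSG00000002831). Its level was 151, 183 and 154 CPM in WT and 307, 293, 137 and 126 CPM in KO. The KO libraries split in 2 pairs, replicates 1 and 2 above all WT libraries and replicates 3 and 4 below all of them. The log2 fold change was 0.40 ± 0.33 (95% interval -0.35 to 1.16, adjusted p = 0.533 by the edgeR quasi-likelihood test). Within lane 4, which holds WT replicate 2 with KO replicates 3 and 4, the difference of mean log2(CPM + 1) was -0.48. Of 5656 stretches of 100 bases in its transcript, 490 (8.66%) occur more than once within it, and reads that map to several places were not counted, so its level is a lower estimate.

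Hormone-sensitive lipase, the product of *Lipe*, acts on diglyceride during the release of stored fat. *Lipe* lies on chromosome 7, 26164546 to 26183729, minus strand (ENSMUSG00000003123). Its level was 109, 207 and 159 CPM in WT and 173, 283, 204 and 223 CPM in KO. WT replicate 1 was the lowest library, and KO replicates 2 and 4 were above all WT libraries. The log2 fold change of 0.48 ± 0.25 (95% interval -0.08 to 1.04) had the lowest adjusted p of the 10 genes, 0.306 by the edgeR quasi-likelihood test, with an exact permutation p of 0.171. A gene on the opposite strand, 4732471J01Rik, covers 5.84% of the *Lipe* exon bases, and reads of the 2 strands were not separated by the counting.

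*Fabp4* encodes the fatty acid binding protein of adipocytes, the carrier that binds fatty acids in their cytosol. It lies on chromosome 3, 10204347 to 10208576, minus strand (ENSMUSG00000062515). The gene was at 1260.0, 1487 and 1613 CPM in WT and at 1213, 1660.3, 1216 and 1374 CPM in KO. KO replicates 1 and 3 were a little below and KO replicate 2 a little above the WT range, and the spread was the narrowest of the 10, with a 1.37-fold range across all libraries. The log2 fold change was -0.09 ± 0.21, and the 95% interval of -0.57 to 0.39 was the narrowest of the 10 (adjusted p = 0.847 by the edgeR quasi-likelihood test). The estimate had the opposite sign with scaling by library size only (0.27).

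PPARγ, the product of *Pparg*, is the nuclear receptor on which fat cell formation depends. *Pparg* lies on chromosome 6, 115311239 to 115440419, plus strand (ENSMUSG00000000440). It was at 34.97, 24.2 and 32.0 CPM in WT and at 26.5, 38.4, 24.4 and 21.1 CPM in KO. KO replicate 2 was above and KO replicate 4 below all WT libraries, and the log2 fold change was -0.14 ± 0.22 (95% interval -0.65 to 0.37; adjusted p = 0.769 by the edgeR quasi-likelihood test). With scaling by library size only it was 0.25.

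*Car3* encodes carbonic anhydrase 3, an abundant cytosolic enzyme of fat cells that skeletal muscle also makes. It lies on chromosome 3, 14863538 to 14872351, plus strand (ENSMUSG00000027559). *Car3* was at 939, 1303 and 1585 CPM in WT and at 1059, 2532, 1509 and 1421 CPM in KO. One KO library, replicate 2, was above the WT libraries, and KO replicates 1, 3 and 4 lay among them. The log2 fold change was 0.35 ± 0.33 (95% interval -0.39 to 1.10; adjusted p = 0.581 by the edgeR quasi-likelihood test). Of 10 skeletal muscle markers 6 passed the count filter, their summed level was 2.22 to 2.502 CPM in WT and 2.29 to 6.34 CPM in KO libraries, and *Tnnc2* was at 0 in all of them, while *Car3* was at 939 CPM or more.

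A peak in 1 library was common to most of the 10 genes, while the rest of their order over the libraries differed. KO replicate 2 was the highest of the 7 libraries for 8 genes, all but *Lep* and *Plin4*, and was above every WT library for 9, all but *Lep*. KO replicate 1 was the highest for the remaining 2. WT replicate 1 was the lowest library for 4 genes, KO replicate 1 for 3, KO replicate 4 for 2 and KO replicate 3 for 1. Their summed level was 3720.4, 4797 and 5426 CPM over the WT replicates and 4056, 8060.1, 5226 and 4920.1 CPM over the KO replicates. Before TMM scaling the 10 genes took up 0.275%, 0.408% and 0.459% of the counts of the WT libraries and 0.416%, 0.860%, 0.596% and 0.457% of those of the KO libraries. Without KO replicate 2, the summed levels of the KO libraries lay within the range of the WT libraries.

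**Figure D3:**
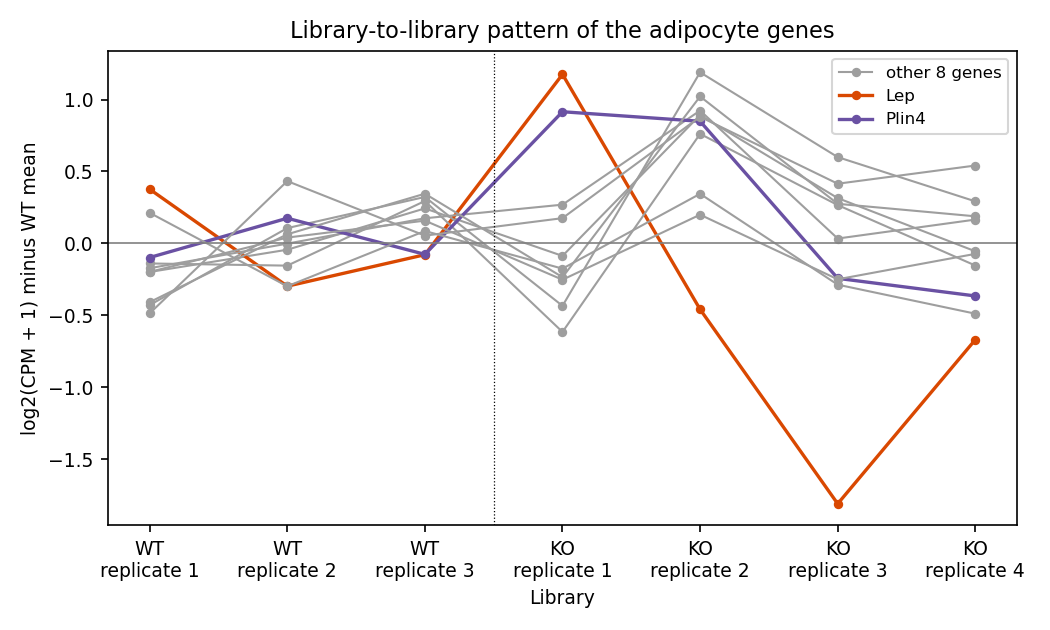
Deviation of each adipocyte gene from its mean over the 3 WT libraries (log2 of TMM-scaled CPM with 1 added, vertical axis) in each library (horizontal axis), 1 line per gene. The 8 grey genes peak together in KO replicate 2, while *Lep* peaks in KO replicate 1 and *Plin4* is high in KO replicates 1 and 2.

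The likeness of each gene to the rest was measured as the root mean square (RMS) distance between its log2 profile over the 7 libraries and the mean profile of the other 9 genes. *Plin1* was the closest at 0.120, then *Adipoq* at 0.192 and *Fabp4* at 0.196. *Pparg* at 0.269, *Car3* at 0.282, *Retn* at 0.334, *Lipe* at 0.346, *Plin4* at 0.400 and *Cfd* at 0.434 followed. *Lep* stood apart at 0.985. The distances are not scaled to the spread of a gene over the libraries, so they hold the size of a profile as well as its shape. That RMS spread was 0.176 for *Fabp4*, 0.529 for *Cfd* and 0.855 for *Lep*. *Fabp4* was thus near the other genes partly because it varied little. These distances describe 7 libraries and carry no test.

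Ratios within a library do not depend on the scaling and show the same departures. *Adipoq* over *Lep*, as a ratio of CPM, was 6.38, 11.5 and 12.03 in WT and 3.91, 24.9, 46.6 and 15.1 in KO. The lowest ratio and the 3 highest were thus all in KO libraries. *Plin4* over *Plin1* was 1.31, 1.41 and 1.04 in WT and 1.95, 1.18, 1.03 and 0.859 in KO, highest in KO replicate 1. *Car3* over *Cfd*, both abundant products, kept between 0.971 and 1.396 in all 7 libraries, although each of the pair varied more over the libraries (3.08-fold for *Cfd* and 2.70-fold for *Car3*).

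Short stretches of promoter are shown for 3 of the genes because C/EBP factors act with PPARγ in fat cells, and because *Lep*, whose profile departed most, holds a match to the same degenerate motif as *Plin1*, whose profile was the most central. The promoters were read from RefSeq (GRCm38.p6, 250 bases before to 50 after a start) and placed on NCBIM37 by an exact match to a single position. The table had 11 promoters of 8 of the genes, and *Fabp4* and *Car3* were not in it. The C/EBP-type motif TTGCNNAA, searched on both strands, was found in 3 of the 11 promoters, 1 each of *Lep*, *Plin1* and *Pparg*, and in 10.8% of 32851 promoters. The promoters of *Plin1* and *Pparg* hold 2 matches each, and the match nearest to the start is printed. The farther ones lie at -187 to -180 in *Plin1* and at -215 to -208 in *Pparg*. In the windows below the capitals mark the 8 letters of the motif, the strand is that of the gene, and positions count from the start site.
*Lep*, chr6:29010156-29010183, plus strand, motif at -55 to -48: ggccggacagTTGCGCAAgtggcactgg
*Plin1*, chr7:86877703-86877730, minus strand, motif at -58 to -51: ctgagaggcaTTGCCCAAgattccctgg
*Pparg*, chr6:115372058-115372085, plus strand, motif at -16 to -9, on the opposite strand: ccaaccaatcTTTTGCAAgacatagaca
The *Pparg* window belongs to the most downstream of its 3 listed promoters. The nuclear receptor element AGGTCA, also searched on both strands, was in 2 of the 11 promoters, both of *Pparg*, and in 16.3% of all promoters. A pair of AGGNCA elements in direct repeat with 1 base between was in 0 of the 11 and in 0.381% of all. None of the 3 windows holds AGGTCA on either strand. A match describes the letters and is not a site of binding, and the absence of a match says only that these letters are not in the window.

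Markers of the cells that surround fat cells were read in the same libraries. All 8 macrophage markers had a positive log2 fold change, with a median of 0.57 and 0 calls by edgeR's quasi-likelihood test, and their summed level was 401 to 1514 CPM in WT and 1097 to 2657 CPM in KO, with no marker at 0. *Cd14* was above the other 7 together in every library but WT replicate 1, at 135 to 1299 CPM in WT and 680 to 2262 CPM in KO, and those 7 summed to 215 to 312 CPM in WT and to 417, 554, 454 and 196 CPM in KO replicates 1 to 4. The 8 fibroblast markers had 3 positive and 5 negative values with a median of -0.05, and summed to 1056 to 2926 CPM in WT and 746 to 3154 CPM in KO. The median deviation of the macrophage markers from their WT mean was 1.07 in KO replicate 2, and that of the fibroblast markers 0.75, beside 0.86 for the 10 adipocyte genes, so by this median all of these lists were highest in that library, while the sum with *Cd14* was highest in KO replicate 3. The part of these cells in the adipocyte values of KO replicate 2 was not tested. In the other libraries the lists did not keep together: KO replicate 4 was at -1.30 for the fibroblast markers and -0.40 for the macrophage markers, but at -0.06 for the adipocyte genes.

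Lymphocyte markers followed another pattern. All 10 were positive, with a median log2 fold change of 2.56 and sums of 37.2 to 55.1 CPM in WT and 64.1 to 549 CPM in KO, and none was at 0 in all libraries. edgeR's quasi-likelihood test called 0 of them, the exact test 4 and DESeq2 8. They were highest in KO replicates 1 and 3, where the adipocyte genes had median deviations of -0.13 and 0.15, and in KO replicate 2, the highest library of the adipocyte genes, the lymphocyte deviation was 0.32. The 8 endothelial markers had a median of -0.11 with sums of 385 to 520 CPM in WT and 325 to 571 CPM in KO. The luminal epithelial list (7 of 8 positive, median 0.40) summed to 2822 to 3697 CPM in WT and 3126 to 4492 CPM in KO, and the myoepithelial list (2 of 8 positive, median -0.27) to 1128 to 1924 CPM and 979 to 2893 CPM. With library size only, the medians of the endothelial, fibroblast and myoepithelial lists were 0.27, 0.34 and 0.11, each of the opposite sign. Without KO replicates 1 and 3 together, *Fabp4* was the only one of the 10 genes with the opposite sign, at 0.06.

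**Figure D4:**
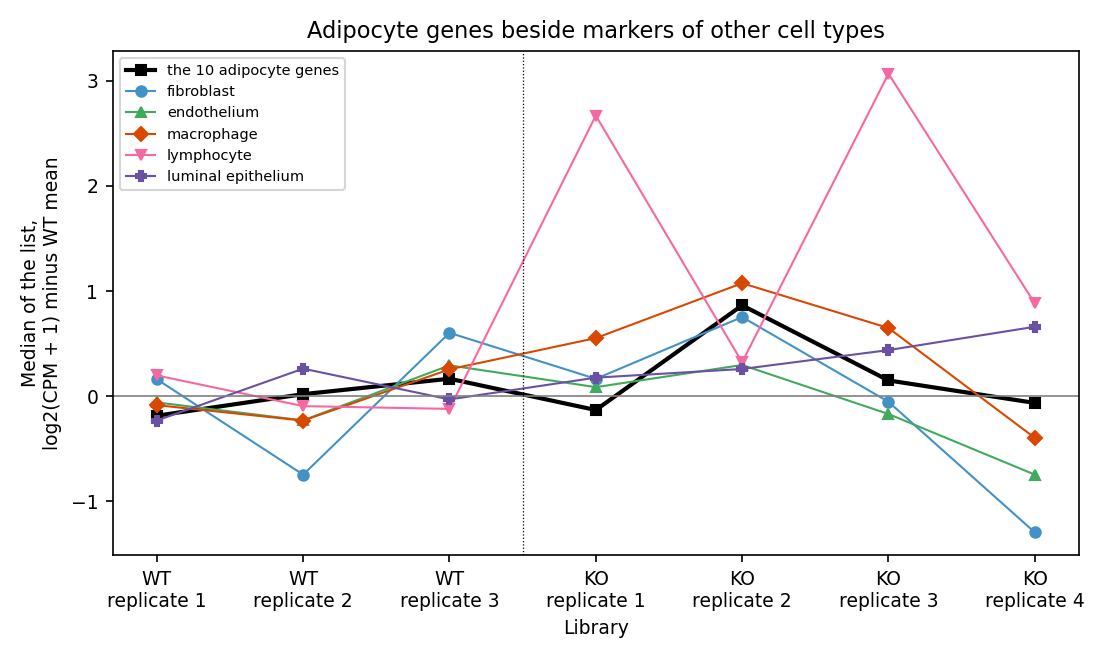
Median deviation from the WT mean (log2 of TMM-scaled CPM with 1 added, vertical axis) of the 10 adipocyte genes and of 5 lists of other cell type markers in each library (horizontal axis), 1 line per list. The adipocyte genes peak in KO replicate 2 at 0.86, and the lymphocyte markers in KO replicates 1 and 3.

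Further markers of mature fat cells, 14 genes outside the 10, gave 9 positive and 5 negative log2 fold changes with a median of 0.17 and 0 calls by edgeR's quasi-likelihood test. At an unadjusted p under 0.05 there were 3 positive and 1 negative, where 10.7% of all genes passed in each direction. *Cidec*, which fuses small droplets into the single large one, had a level of 283 ± 115 CPM in WT and 397 ± 187 CPM in KO (SD, n = 3 and 4), with its highest value, 670.2 CPM, again in KO replicate 2. *Angptl4*, an inhibitor of lipoprotein lipase that responds to fasting, was at 161, 759 and 162 CPM in WT and 1105, 756, 1121 and 1453 CPM in KO. WT replicate 2 lay just above the lowest KO library, and the log2 fold change was 1.62 ± 0.56 (adjusted p = 0.153 by the edgeR quasi-likelihood test). *Adrb3*, the β3-adrenergic receptor of fat cells, had 61.3 ± 24.2 CPM in WT and 111 ± 44.4 CPM in KO. The 1 negative gene at an unadjusted p under 0.05 was *Lgals12*, chosen after its values were seen. It was at 56.8 to 83.8 CPM in WT and 34.6 to 59.5 CPM in KO, and the groups overlapped. The log2 fold change of *Lgals12* was -0.56 (adjusted p = 0.168 by the edgeR quasi-likelihood test). *Aqp7*, the glycerol channel of fat cells, was chosen after its values were seen, at 16.1 to 24.07 CPM in WT and 24.10 to 34.9 CPM in KO. Its groups did not overlap, as held for 2 of the 14 genes and for 18.7% of all genes. *Adig* was the other, with a log2 fold change of -0.18.

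**Figure D5:**
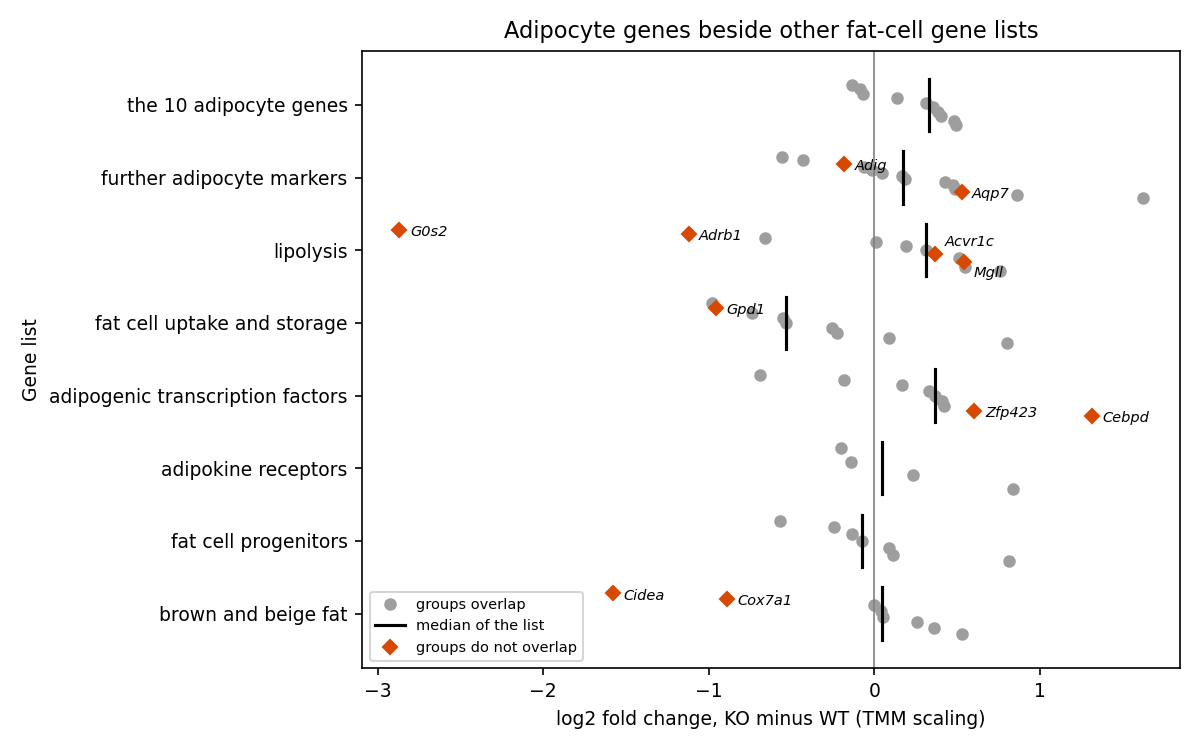
Log2 fold change (KO minus WT, horizontal axis) of every tested gene in the adipocyte group and in 7 other lists of fat cell genes (vertical axis). Grey points are genes whose WT and KO libraries overlap, diamonds with names are genes whose libraries do not, and vertical bars are list medians. The 10 adipocyte genes hold no diamond and have a median of 0.33, while *G0s2* lies farthest to the left at -2.87.

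In lipolysis, 8 of 11 genes were positive and 3 negative, with a median of 0.31 and 0 calls by edgeR's quasi-likelihood test. *Pnpla2*, whose product ATGL begins the breakdown of triglyceride, was at 599 ± 237 CPM in WT and 852 ± 238 CPM in KO. *Abhd5*, its coactivator, was at 512 ± 95.2 CPM and 323 ± 154 CPM. *G0s2* encodes a small inhibitor of ATGL, and its level was 897, 488 and 1067 CPM in WT and 104, 162, 30.1 and 151 CPM in KO. All KO libraries were far below all WT libraries, with a log2 fold change of -2.87 ± 0.52, yet the adjusted p was 0.0692 by the edgeR quasi-likelihood test, and the call was made only by the exact test (adjusted p = 1.69e-05), DESeq2 (adjusted p = 1.82e-06) and the likelihood ratio test (adjusted p = 1.4e-05). *Adrb1*, the β1-adrenergic receptor, chosen after its values were seen, was likewise called by those 3 tests only, at 11.2 ± 2.64 CPM in WT and 5.14 ± 0.945 CPM in KO. The luminal epithelium also makes lipid droplets, and which cells these 2 RNAs came from was not tested.

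Of 9 genes of fatty acid uptake and storage 7 were negative, with a median of -0.53 and 0 calls by edgeR's quasi-likelihood and exact tests and by DESeq2. *Lpl*, whose lipase frees fatty acids from circulating lipoproteins, was at 1873 ± 605 CPM in WT and 1123 ± 328 CPM in KO. *Cd36*, a fatty acid transporter, was at 1080.3 ± 217 CPM and 738 ± 178 CPM, and *Acsl1*, which couples fatty acids to coenzyme A, at 1208 ± 269 CPM and 612 ± 334 CPM. The groups overlapped for all 3 of these genes. *Gpd1*, which makes glycerol phosphate for triglyceride, was chosen after its values were seen. It was the 1 gene of the 9 whose groups did not overlap, beside 18.7% of all genes. *Gpd1* was at 424 to 599 CPM in WT and 191 to 327 CPM in KO. Its log2 fold change was -0.96 ± 0.23 and its adjusted p, 0.0851 by the edgeR quasi-likelihood test, was the lowest of the list. The lactating epithelium uses genes of this list too. Scaling by library size only gave the list a median of -0.12.

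Adipogenic transcription factors were positive in 7 of 9 cases, with a median of 0.37. *Cebpa*, which with *Pparg* maintains the mature fat cell, had 243 ± 61.9 CPM in WT and 323 ± 45.8 CPM in KO (log2 fold change 0.41 ± 0.21). *Cebpb*, which acts early in fat cell formation, had 146 ± 84.4 CPM and 189 ± 81.8 CPM, and *Rxra*, the partner receptor of PPARγ, 168 ± 10.3 CPM and 148 ± 13.4 CPM. *Cebpd*, chosen after its values were seen, was at 35.5, 90.3 and 39.7 CPM in WT and 138, 133, 114 and 163 CPM in KO. All KO libraries exceeded all WT libraries. The exact test, DESeq2 and the likelihood ratio test called *Cebpd*, but edgeR's quasi-likelihood test did not (adjusted p = 0.0868). These levels are of whole gland, and which cells made the RNA of these factors was not tested.

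Receptors of the adipokines did not separate the groups. *Adipor1* and *Adipor2*, the adiponectin receptors, stood at 186 ± 46.0 CPM and 189 ± 32.3 CPM in WT and at 220 ± 50.4 CPM and 165 ± 28.6 CPM in KO. *Cdh13*, a cadherin that binds adiponectin, was at 40.9 ± 8.64 CPM and 37.0 ± 10.04 CPM. *Lepr*, the leptin receptor, was low, at 1.84 ± 0.623 CPM and 3.30 ± 2.01 CPM. Fat cell progenitor markers were mixed, with 3 of 7 positive and a median of -0.07 (0.33 with library size only), led by *Ly6a* (60.6 ± 11.2 CPM in WT, 106 ± 46.1 CPM in KO), *Cd34* and *Pi16*.

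The perilipin, fatty acid binding protein, resistin, PPAR and carbonic anhydrase families were read in full. All 5 perilipins were positive, with a median of 0.40: *Plin2*, the coat of droplets in many cells including the milk-secreting epithelium, was at 1964 ± 730.4 CPM in WT and 2654 ± 615 CPM in KO, *Plin3* at 112 ± 22.6 CPM and 134 ± 41.9 CPM, and *Plin5* at 2.35 ± 0.660 CPM and 4.34 ± 0.897 CPM. *Plin5*, the coat of oxidative tissues, was the only perilipin whose groups did not overlap, with an adjusted p of 0.146 by the edgeR quasi-likelihood test. Over all genes, 18.7% had groups that did not overlap. Of 9 fatty acid binding protein genes 3 were tested and all were negative with TMM scaling, with a median of -0.25 that was 0.14 with library size only. *Fabp3*, a form made in heart and in the lactating epithelium, was at 3045 and 3177 CPM in WT replicates 1 and 3 and at 866 CPM in WT replicate 2, and the KO libraries held 1103, 338, 130.3 and 862 CPM. Its log2 fold change was -1.96 ± 0.69 against -0.09 for *Fabp4*, with an adjusted p of 0.158 by the edgeR quasi-likelihood test, and *Fabp5* was at 123 CPM in WT and 103 CPM in KO.

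In the resistin family 3 of 4 genes were tested, and *Retnla*, made by macrophages and fat tissue, was at 35.1 CPM in WT and 54.6 CPM in KO on average, with 88.3 CPM in KO replicate 2, while *Retnlg* stayed under 1 CPM in all libraries. The 3 receptors of the PPAR family were all negative with TMM scaling (median -0.16, and 0.20 with library size only): *Ppard* at 89.6 CPM in WT and 80.1 CPM in KO, and *Ppara* at 3.21 CPM and 1.503 CPM, beside *Pparg*. Of 16 carbonic anhydrase genes 13 were tested, 6 positive and 7 negative with a median of -0.00, and beside *Car3* the genes with the highest mean CPM were *Car5b* (137 CPM in WT, 76.7 CPM in KO) and *Car6* (37.1 CPM and 67.6 CPM). Per length, *Car2*, chosen after its values were seen, was above *Car5b* in both groups, at 34.3 against 21.5 RPKM in WT and 16.8 against 12.1 RPKM in KO.

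Brown and beige fat genes were scarce apart from 1. *Ucp1*, the uncoupling protein that defines brown fat, was between 0 and 5.65 CPM and at 0 in 1 library of each group. *Prdm16* had 8.34 CPM in WT and 10.7 CPM in KO and *Cox8b* 4.02 CPM and 5.81 CPM. *Cidea*, which brown fat and the lactating epithelium both make, was at 558, 344 and 491 CPM in WT and 118, 163, 88.9 and 253 CPM in KO. The groups did not overlap, and the log2 fold change of *Cidea* was -1.58 ± 0.34. It was called by the exact test (adjusted p = 0.00092) and by DESeq2 but not by edgeR's quasi-likelihood test (adjusted p = 0.0793). The study described *Cidea* as comparable between genotypes in its qRT-PCR and western blots. Its text names stages other than lactation day 1 for this, while the legend of the supplementary figure includes lactation day 1 for both measures. The study also listed *Cidea* among the lipid genes that differed in its RNA-seq.

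The genes whose profile over the 7 libraries was nearest to the mean of the 10 adipocyte genes were sought among 17165 others. They were *Zcchc14* (RMS distance 0.0858), *Rab3il1* (0.0882), *Odf3l1* (0.0888), *Ghr* (0.0919), *Prnp* (0.0927), *Rwdd2a* (0.0960), *Gm16176* (0.0971), *Cdsn* (0.0972), *Por* (0.0978) and *Zyg11a* (0.0996), where the median gene was at 0.351 and a flat profile would be at 0.252. *Ghr*, the growth hormone receptor, was at 141, 133 and 147 CPM in WT and 153, 205, 136 and 141 CPM in KO, highest in KO replicate 2 as the adipocyte genes were. *Odf3l1*, *Gm16176* and *Zyg11a* stayed under 1 CPM, where 1 added to the level flattens a profile. The genes closest to *Lep* were *Ceacam20* at 0.331 and *Gm12824* at 0.354. The profile of *Lep* had an RMS spread of 0.855, beside 0.252 for the mean of the 10 genes. Its distances are therefore not on the scale of those above. *Nnat* and *Sncg*, further fat cell markers chosen after their values were seen, were highest in KO replicate 1 and lowest in KO replicate 3. *Lep* had the same extremes. *Nnat* was at 188 and 23.1 CPM in these libraries, and *Sncg* at 61.1 and 20.7 CPM. *Cidec*, of the same list, was highest in KO replicate 2.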

How the data were processed

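RNA was extracted from mammary glands with Trizol, and libraries were made with an Illumina TruSeq kit. Per the labels and the methods of the study, the authors mapped paired-end reads with STAR to NCBIM37 (mm9). The methods and the submitters' processing notes name different STAR versions (2.5.2a in the notes). The deposited values are whole-number counts per gene from featureCounts 1.4.6-p5 on exons of GENCODE vM1, with no option set for strand, pairs or multimapping reads, and without normalization. The deposited summed exon length per gene was used for RPKM. A further library (1) appears in the command line without a column and was not used here.

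Leaving out 37 mitochondrial and 580 ribosomal genes, a gene was tested if 4 or more of the 7 libraries had 5 counts or more, which gave 17175 genes. The comparison used edgeR 4.0.16 under R 4.3.3 (TMM, quasi-likelihood test, group as the only term, Benjamini-Hochberg adjustment), with limits of 0.01 on the adjusted p and 1 on the log2 fold change, as in the methods of the study, which do not name the test. DESeq2 1.42.0 and edgeR's exact and likelihood ratio tests were alternatives. The fit had a common dispersion of 0.0921 and 3.91 prior degrees of freedom. Intervals are 95% intervals from the quasi-likelihood SE. The exact permutation test used log2 of CPM with 1 added, and its 2-sided p is the doubled 1-sided p. The fit was tested on simulated counts.

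The 10 genes and the other 19 gene lists were chosen with earlier results of these data known, so lists are described by counts and medians and given no test. Genes were named by a rule: the 10 genes, the 3 genes of each list with the highest mean CPM, the tested members of the perilipin, fatty acid binding protein, resistin, PPAR and adipokine receptor families, and the 10 nearest profiles. CPM is not corrected for length, so this order is not one of abundance. Names outside the rule (*Aqp7*, *Adig*, *Lgals12*, *Nnat*, *Sncg*, *Adrb1*, *Gpd1*, *Cebpd*, *Car2*, *Ucp1*, *Tnnc2*, *Ceacam20*, *Gm12824* and *Tardbp*) were chosen after values were seen. Of 169 list entries all matched a gene, 4 by an older symbol. Depth of 36007737 counts or more makes counting error small for all 10 genes, and spread between libraries sets the precision.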

Additional observations from a re-analysis of the deposited data

Results flagged for a closer look

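Among 64 named genes, the level in 1 of the 4 *Tardbp* KO libraries lay far from the others for 9 (14.1%). The measure was Dixon's ratio of the gap to the whole range, on CPM, at its 95% critical value. Chance gives about 1 in 20 for independent, normally distributed values. These genes share the same 4 libraries, so 14.1% cannot be read as an excess over that rate. None of the 10 adipocyte genes was among them. KO replicate 2 was the high library for *Cebpa* (ratio 0.938, 392 CPM against 297 to 303 CPM), *Pnpla2* (ratio 0.923, 1207 CPM against 708 to 747 CPM), *Acsl1* (ratio 0.898, 1110.3 CPM against 401 to 473 CPM) and *Retnla* (ratio 0.891, 88.3 CPM against 41.4 to 46.5 CPM). This is the library in which 8 of the 10 adipocyte genes were highest. KO replicate 1 was high for *Cldn5* (ratio 0.882) and *Acta2* (ratio 0.867) and low for *Krt18* (ratio 0.927, 346 CPM against 624 to 646 CPM). KO replicate 4 was high for *Cebpb* (ratio 0.856) and *Plin3* (ratio 0.851).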

How the results depend on the processing

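The count of adipocyte genes called was 0 in the 23 alternative settings, but 17 of these called 0 and 3 called 1 of all genes, so there a count near 0 was fixed and says nothing of stability. The 3 that could call more were the exact test, DESeq2 and the likelihood ratio test. These called 2.44%, 3.33% and 2.70% of all genes and 0 of the 10. At such shares a count of 0 among 10 genes says little of stability either. The lowest adjusted p of any of the 10 genes in any setting was 0.0861 (*Plin1*, quasi-likelihood test, scaling by library size only). The median log2 fold change of 0.33 was 0.70 with library size only, 0.0731 within lane 4 (values without a test) and 0.0589 to 0.40 when single libraries were left out, lowest without KO replicate 2. With the replicate number as a block the median was 0.36 and 0 of the 10 genes were called. Whether the numbers pair the libraries is not stated by the labels, and the counts do not settle it. Deviations of same-numbered WT and KO libraries from their group means correlated across genes at 0.44, 0.07 and -0.08. The value for replicate 1 was the highest of all pairs, but not every library correlated best with its own number. The block raised the genes of any kind at an adjusted p under 0.05 from 1 to 649, and leaving out WT replicate 2 raised them to 948. *Lep*, *Fabp4* and *Pparg* changed sign with library size only (0.30, 0.27 and 0.25), *Fabp4* without KO replicates 1 and 3 (0.0622, chosen after seeing the data) and *Plin4* within lane 4 (-0.48). With single libraries left out *Lep* ran from -0.95 to 0.25 and *Retn* from -0.14 to 0.33. Over all genes the exact test called 173 higher and 246 lower, DESeq2 291 and 281, the likelihood ratio test 210 and 254, and the quasi-likelihood test without a filter on low counts 1. The cause of these differences was not tested.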
